A study of Cicer arietinum with 32 samples.

Results

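The transcripts described here are a leaf-like set of chickpea (Cicer arietinum), from an expression atlas of 38818 transcripts. These 200 transcripts were abundant in every leaf tissue and far lower in every root tissue. The atlas covered 32 tissues and organs of genotype ICC4958, grown without an experimental treatment in a culture room or greenhouse or in the field. Expression was measured by RNA-seq and given as FPKM, the number of fragments scaled by transcript length and by the size of the library. Each tissue had 1 value per transcript, the authors' mean over 3 biological replicates (2 for seeds at 30 days after pollination), so no spread between replicates could be given and no difference below was tested. Seeds at 20 days after pollination were left out, since their values were on another scale.

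Members were chosen by their measured FPKM in the leaf and root tissues. On the scale L = log2(FPKM + 1), the lowest value over mature leaf (ML), young leaf (YL), bracteole (Brac) and shoot (S) was taken as the leaf floor of a transcript. The highest value over root (R), root tip (Rtip) and root hair (RH) was taken as its root ceiling. The score was the floor minus the ceiling, and the 200 highest scores were kept among the 30014 transcripts with Tau below 0.9, Tau being a measure of tissue specificity that runs from 0 for even expression to 1 for expression in a single tissue. Leaf and root values of the members are therefore a description of the choice. The 24 tissues outside the score were calyx (Cal), podshell (PodSh), pedicel (Pedi), germinating seedling (GS), shoot apical meristem (SAM), flower buds FB1 to FB4, flowers FL1 to FL5, corolla (Cor), androecium (And), gynoecium (Gyn), seeds at 5, 10 and 30 days after pollination (5DAP, 10DAP, 30DAP), seed coat (SdCt), embryo (Emb), endosperm (Endo) and nodule (Nod).

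The sampling bears on how these tissues can be read. Shoot and root came from seedlings of 15 days, the apical meristem from seedlings of 21 days, and the germinating seedlings were 5 days old and raised on filter paper. Root hairs came from 7-day-old seedlings kept in the dark, so tissue and lack of light cannot be told apart there. Bud length increased from 4 mm for FB1 through 6 for FB2 and 8 for FB3 to between 8 and 10 mm for FB4. Flowers ran from closed petals (FL1) to drooping, senescing petals (FL5), and calyx, corolla, androecium, gynoecium and pedicel were taken from FL2 flowers. Podshell, seed coat, embryo and endosperm came from pods at 10 days after pollination, and nodules from mature field-grown plants. The shoot sample is titled as shoot but its tissue field reads root, and its title was followed. The FPKM values of a tissue summed to between 597153 (Nod) and 959753 (Endo). The tables of FPKM hold no read counts, and the read depth was not used here.

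In land plants, light is captured in the thylakoid membranes of chloroplasts by chlorophyll-binding antenna proteins around photosystems I and II. Electron transport between the photosystems drives the chloroplast ATP synthase, and Rubisco, kept active by Rubisco activase, fixes carbon dioxide in the stroma. Most of the proteins concerned are encoded in the nucleus, and their genes are known to be induced by light and by chloroplast development. Calyx, pod wall, young stems and the seed coats and embryos of many legumes also contain chloroplasts, whereas petals, anthers and roots carry mainly other kinds of plastid.

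The scores of the 200 members ran from 4.30 to 11.16 with a median of 5.32, against a median of -0.87 over all 30014 transcripts under the Tau limit. The leaf floor lay between 20.9 and 27356 FPKM (median 110.6) and the root ceiling between 0 and 138.4 FPKM (median 1.17). On the FPKM + 1 scale the floor exceeded the ceiling by a median of 39.8 times. The floor was set by S in 141 members, by ML in 29, by YL in 19 and by Brac in 11, and the ceiling by R in 115, Rtip in 62 and RH in 23. At the edge of the set, the last 5 members (Ca_TC13909, Ca_TC01731, Ca_TC21526, Ca_TC29670 and Ca_TC26315) scored 4.32 to 4.30. The next 5 transcripts (Ca_TC01530, Ca_TC13908, Ca_TC28291, Ca_TC11999 and Ca_TC01870) scored 4.30 to 4.28, so nothing in the values separates the last member from the first transcript left out. Members were broadly expressed, with Tau between 0.25 and 0.74 and a median of 0.45, against 0.47 over all transcripts under the limit.

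The 10 highest scores belonged to transcripts without a description in the annotation used. Ca_TC03865 scored 11.16, with 6635 FPKM in ML, 3669 in YL, 3919 in Brac and 3586 in S, and no more than 0.573 in the root tissues. In the tissues outside the score its level was 5294 FPKM in Cal and 2238 in PodSh, between 588 and 1134 in the flower stages, and only 44.98 in Pedi, 5.02 in Cor and 1.58 in Gyn. It thus stood within its leaf range in calyx, below it in pod wall and flowers, and near 0 in seeds, where it did not exceed 1.26 FPKM. Ca_TC25100 scored 9.46, reached 581 FPKM in Cal and 400.1 in FB3, and had 0.11 in Pedi, the lowest of all members relative to its leaf floor in that organ. The next members by score were Ca_TC17562, Ca_TC03680, Ca_TC07840, Ca_TC03681, Ca_TC03866, Ca_TC09485, Ca_TC26737 and Ca_TC17561, with scores from 9.18 to 8.15. Their calyx levels ran from 555 FPKM (Ca_TC26737) to 22425 FPKM (Ca_TC03681).

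Ca_TC03681 was the most abundant member by far. It had 51410.0 FPKM in ML, 49133 in YL, 104117 in Brac and 27356 in S, against 54.4 in R, 6.72 in Rtip and 0.123 in RH. This transcript alone held 11.4% of the FPKM sum of Brac and 6.25% of that of ML, and a level relative to a sum is lowered for every other transcript where 1 transcript takes so much of it. Its level was lower in the green organs, from 2666 FPKM in Pedi to 22425 in Cal, and much lower in seed tissues, from 27.7 in 30DAP to 4025 in SdCt. The nodule value was 1.14 FPKM.

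Only 18 of the 200 members carried a description, which is 9% against 8.29% of all transcripts under the Tau limit, since the annotation tables used list 3466 of the 38818 transcripts. Names and roles come from the best Arabidopsis match. The label leaf-like could therefore be checked on few members. Of the 18, 8 belonged to the lists for antenna, photosystems, electron transport, carbon fixation and pigments, and NDF4 and EGY2 are chloroplast proteins as well. The 8 include both ATPC1 transcripts (Ca_TC00720 and Ca_TC00719), whose positions overlap. Counts over the described members can therefore hold this locus 2 times. Among the 9 members with a listed cellular component, 5 named the chloroplast and 4 the thylakoid, against 14.5% and 3.51% of the 798 transcripts under the limit with such an entry. LHCB1 (Ca_TC35540), the RBCS member, the Rubisco activase member, CRD1 and APX1 (Ca_TC34425) are listed as not aligned to the genome, and the first 2 belong to families of near-identical copies between which reads may be split, so their levels are uncertain.

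**Figure D1:**
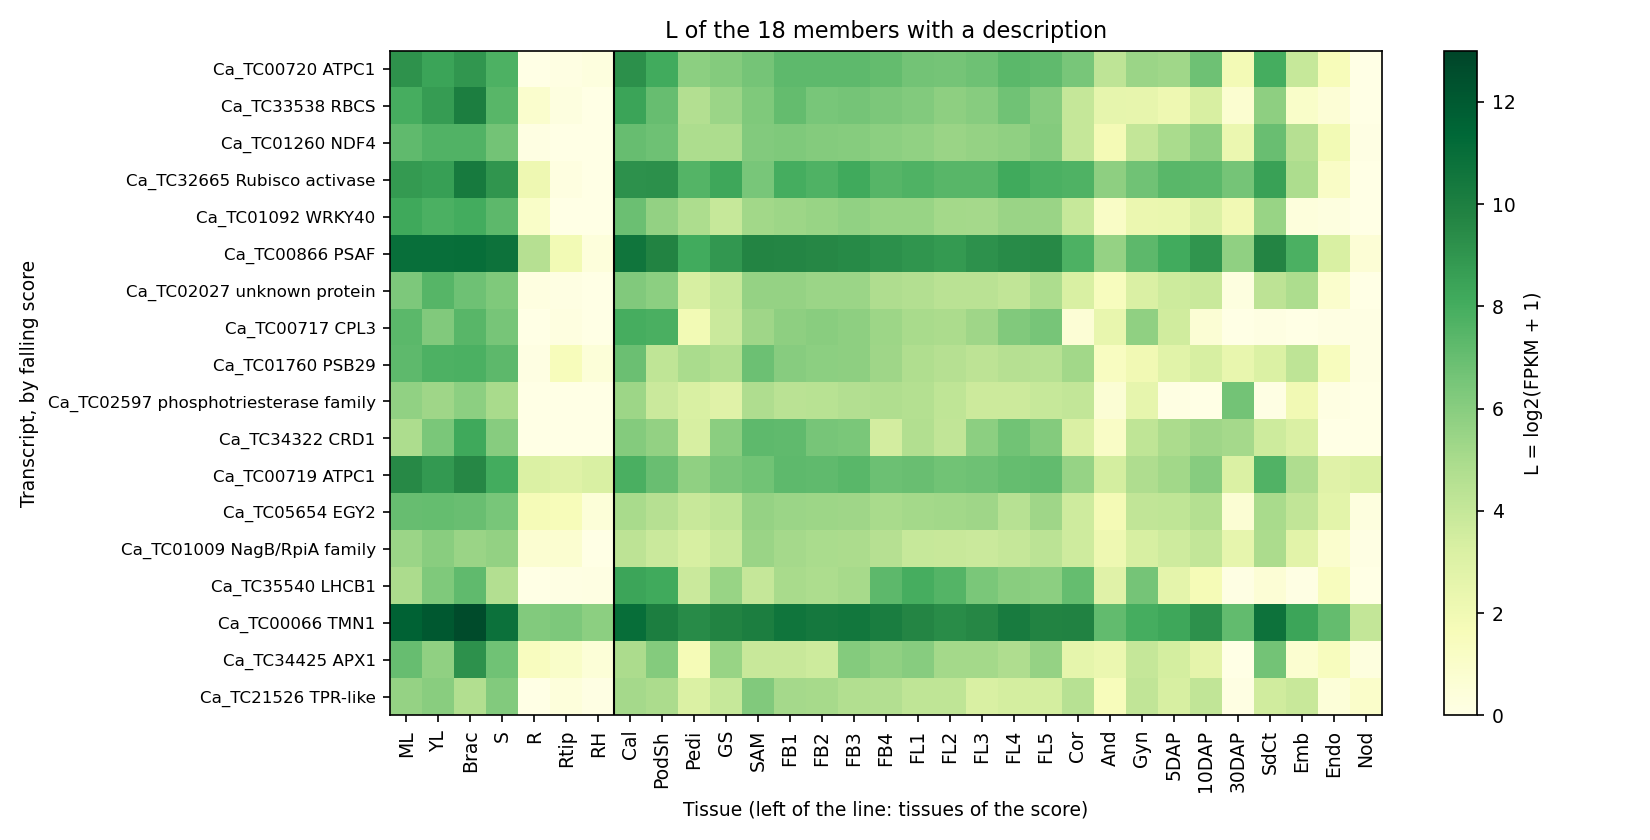
L, the log2 of FPKM + 1, of the 18 members with a description (rows, by falling score) in 31 tissues (columns); darker green stands for higher L and the line separates the 7 tissues of the score from the 24 others. Each row is darker in Cal and in PodSh than in the root tissues and nodule, TMN1 is the darkest row in the root tissues, and LHCB1 and CPL3 are pale in the seed tissues.

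The photosystem members differed in how far they extended beyond leaves. PSAF (Ca_TC00866), a subunit of photosystem I that docks plastocyanin, had 1989 FPKM in ML, 1996 in YL, 2047 in Brac and 1727 in S, and 22.7 in R, 2.71 in Rtip and 0.28 in RH. It was at 1520.5 FPKM in Cal, 869.7 in PodSh, 274 in Pedi, 484 in GS and 854 in SAM, with flower stages from 453 to 803 (median 672). Every green organ and flower stage thus lay between the highest root value and the lowest leaf value. Among floral organs it had 212 FPKM in Cor, 47.4 in And and 158 in Gyn, and seed tissues ran from 8.27 in Endo to 857 in SdCt, with 0.483 in Nod. PSB29 (Ca_TC01760), needed for photosystem II to form in Arabidopsis, had 151 to 217 FPKM in leaf tissues and 113 in SAM. It had only 17.1 in PodSh, where it was the described member lowest relative to its leaf floor, and 2.82 in Gyn, while 64.2 FPKM in FB1 stood against 21.5 in FL5.

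LHCB1, an antenna protein of photosystem II, was higher in calyx and pod wall than in any leaf tissue. Its leaf values were 28.7 FPKM in ML, 75.9 in YL, 144 in Brac and 24.3 in S. It reached 323 FPKM in Cal and 283 in PodSh, 244 in FL1, 129 in Cor and 95.4 in Gyn. In the seed tissues the lowest value was 0.047 FPKM (Emb) and the highest 5.29 (5DAP). Every seed tissue was thus below every leaf tissue for this transcript.

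ATPC1, the gamma subunit of the chloroplast ATP synthase, was represented by 2 members. Ca_TC00720 had 547 FPKM in ML, 333 in YL, 505 in Brac and 217 in S, and 599 in Cal, 271 in PodSh and 252 in SdCt. Ca_TC00719 had 727, 465, 752 and 263 FPKM in the same leaf tissues, and 226 in Cal, 119 in PodSh and 198 in SdCt. Their positions on the kabuli chickpea assembly overlap, on chromosome 1 from 5495876 to 5497503 for Ca_TC00720 and from 5484989 to 5498036 for Ca_TC00719, so reads may be shared between them. NDF4 (Ca_TC01260; chromosome 1, 9889535 to 9891150), part of the chloroplast NAD(P)H dehydrogenase of cyclic electron flow, had 99.1 to 198 FPKM in leaf tissues, 126 in Cal, 107 in PodSh and 119 in SdCt. Seed coat was at leaf level for this transcript, whereas And had 2.46 FPKM and Endo 2.69.

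The carbon fixation members differed in seeds. The RBCS member (Ca_TC33538), a Rubisco small subunit, had 246 FPKM in ML, 421 in YL, 1056 in Brac and 175 in S, and 340.1 in Cal, 127 in PodSh, 23.7 in Pedi, 41.4 in GS and 76.9 in SAM. Its floral organs ranged from 4.49 (Gyn) to 15.1 FPKM (Cor), and its seed tissues from 0.49 (Endo) to 54.7 FPKM (SdCt). Rubisco activase (Ca_TC32665) had 384 to 1265 FPKM in leaf tissues, 571 in Cal, 591 in PodSh, 306 in GS, 88.9 in SAM, 366 in SdCt and 92.8 in 30DAP. Pod wall and calyx thus lay within its leaf range, and SAM, at the bottom of the described members relative to the leaf floor, did not.

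CRD1 (Ca_TC34322), a subunit of the cyclase that forms the fifth ring of chlorophyll, was listed at 0 in R, Rtip and RH. It had 27.6 FPKM in ML, 83.5 in YL, 291 in Brac and 63.3 in S, and 149.6 in SAM and 59.04 in GS. In the buds it was at 146 FPKM in FB1, 90.9 in FB2, 84.2 in FB3 and 9.95 in FB4. It was the member with the largest fall from FB1 to FB4, and its mature leaf value was the lowest of the leaf tissues. EGY2 (Ca_TC05654), a thylakoid protease, had 88.5 to 129.6 FPKM in leaf tissues but 31.04 in Cal, the lowest described member there relative to its floor.

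The described regulators and other members were as varied. WRKY40 (Ca_TC01092; chromosome 1, 8826414 to 8829506), a transcription factor of stress and defence responses in Arabidopsis, had 290.2 FPKM in ML and 153 in S, 115 in Cal, 48.8 in PodSh, 14.1 in GS and 0.24 in Emb. An overlapping WRKY40 transcript outside the set (Ca_TC01093, ranked 1407) had 35.4 to 84.3 FPKM in leaf tissues. Its levels were 13.6 FPKM in R, 79.8 in Pedi and 10.6 in Nod. CPL3 (Ca_TC00717; chromosome 1, 5452898 to 5454509), a small MYB protein of epidermal patterning in Arabidopsis, had 73.7 to 174 FPKM in leaf tissues, 246 in Cal, 228 in PodSh and 53.4 in Gyn. The same transcript had 2.70 FPKM in Pedi, 0.477 in Cor and 0.097 in SdCt, so it split the green organs of the flower and fruit from the pedicel. The calcium-dependent phosphotriesterase family member (Ca_TC02597) had 31.01 to 56.8 FPKM in leaf tissues and 96.5 in 30DAP, with 0.083 in 5DAP and 0.033 in 10DAP. APX1, a peroxidase that removes hydrogen peroxide with ascorbate, had 569 FPKM in Brac, 97.9 in SdCt and 2.37 in Pedi. TMN1 (Ca_TC00066; chromosome 1, 424420 to 432467), a multi-pass protein of the endomembrane system, had 1802 to 6480.4 FPKM in leaf tissues and the highest root values of the described members, 70.1 in R, 79.4 in Rtip and 57.4 in RH. The TPR-like member (Ca_TC21526) was at its highest in SAM, at 74.4 FPKM. The remaining described members were a NagB/RpiA family protein (Ca_TC01009) with 41.6 to 62.4 FPKM in leaf tissues and 43.5 in SAM, and an unknown protein (Ca_TC02027) with 77.04 to 176 FPKM in leaf tissues and 72.4 in Cal.

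Across all 200 members the level outside the score was highest in calyx. The median L was 7.31 in Cal, against 7.56 in ML, 7.73 in YL, 7.97 in Brac and 7.005 in S. It was 6.40 in PodSh, 6.23 in SAM, 5.28 in GS and 5.02 in Pedi, between 5.82 (FL2) and 6.33 (FB1) in the flower stages, and 5.75 in SdCt. All of these lay well above the median of all transcripts under the Tau limit, which was 2.71 in Cal, 2.66 in PodSh, 2.91 in FB1 and 2.22 in SdCt. Corolla (4.90), 10DAP (4.59), Gyn (4.09), 5DAP (4.06), Emb (3.15), And (2.70) and 30DAP (2.04) followed, and Endo (1.45) and Nod (0.12) lay below the medians of all transcripts under the limit, 1.92 and 0.90. In whole organs, fewer green cells and less RNA per green cell cannot be told apart.

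**Figure D2:**
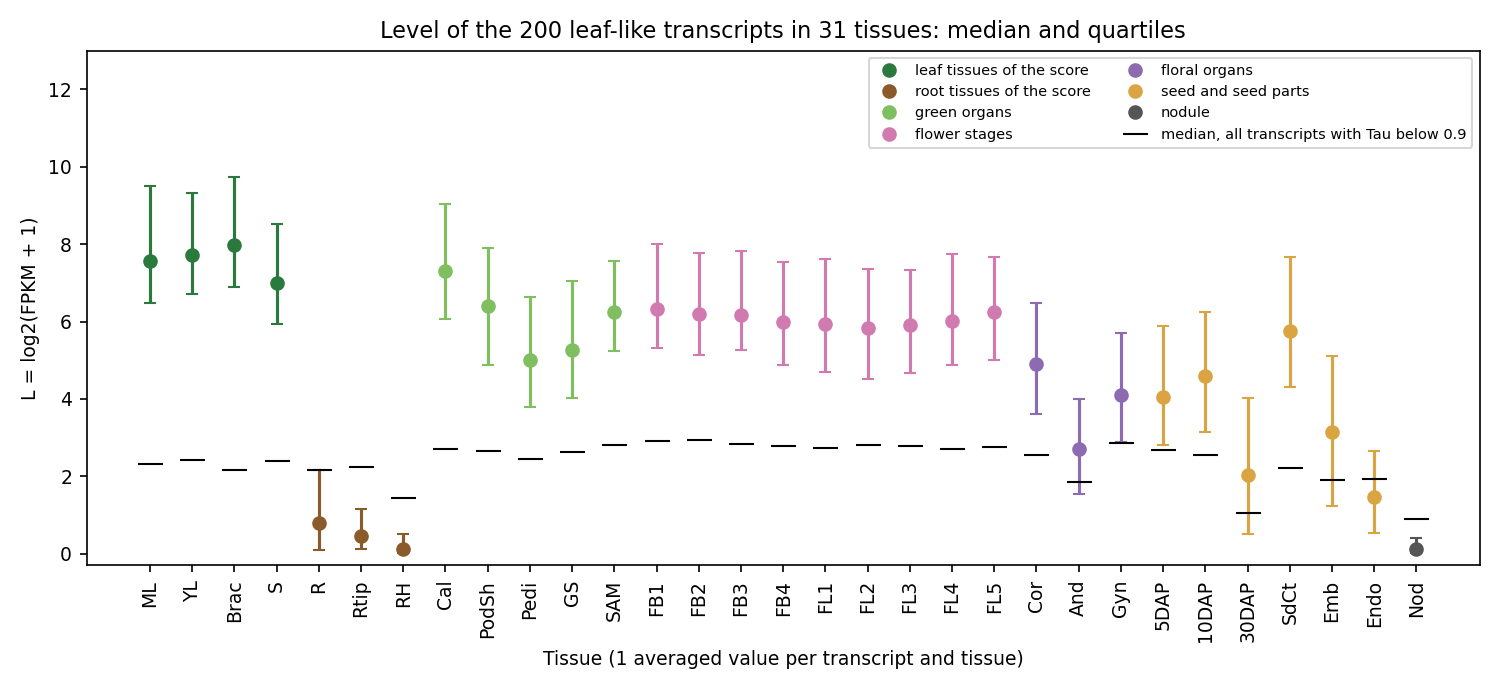
Median L (points) with the lower and upper quartiles (bars) of the 200 members in 31 tissues, and the median of all 30014 transcripts with Tau below 0.9 (black dashes). Outside the tissues of the score the members are highest in Cal (7.31) and lowest in Nod (0.12), and only in root tissues, Endo and Nod do they lie below the dashes.

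The members made up a large part of all FPKM in leaf tissues and calyx. They held 32.1% of the sum in Brac, 22.9% in ML, 21.4% in YL and 16.4% in S, and 15.9% in Cal, 8.21% in PodSh, 7.39% in SdCt and 7.0% in SAM. Flower stages lay between 5.71% (FL2) and 7.72% (FB1). The share was 1.03% in And, 0.99% in 30DAP, 0.14% in Endo and 0.02% in Nod, and 0.13% in R. A few members carried much of these shares: the 5 most abundant held 49.5% of the members' sum in Brac and 59.7% in Cor, where they were Ca_TC07308, Ca_TC21030, Ca_TC24427, Ca_TC20970 and Ca_TC03681.

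Each member was next placed between its own root ceiling and leaf floor, with the midpoint of these on the L scale as a mark. In Cal, 117 members were at or above the leaf floor and 199 at or above the midpoint. Among the 4419 transcripts under the Tau limit whose floor lay above the ceiling, 66.6% were at or above the floor in Cal and 85.7% at or above the midpoint. In PodSh the members' counts were 52 and 186 (background 50.8% and 73.1%), in SAM 35 and all but 4 (59.8% and 81.4%), in GS 15 and 176 (36% and 62.6%) and in Pedi 8 and 158 (32.7% and 52.8%). As shares of 200, the members at the floor were fewer than the background in all 5 green organs and those at the midpoint more. The rule favoured high floors and low ceilings and kept scores of at least 4.30, while background transcripts needed only a score above 0. Contrasts with this background at floor, midpoint and ceiling, here and below, therefore cannot be told apart from the choice. Calyx was the only green organ with a median at or above the floor, by 0.24, and Pedi the lowest, at -1.91. At or below the root ceiling were 0 members in Cal (background 7.99%), GS (15.1%) and SAM (11%), 1 in PodSh (15.6%) and 5 in Pedi (24.4%).

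**Figure D3:**
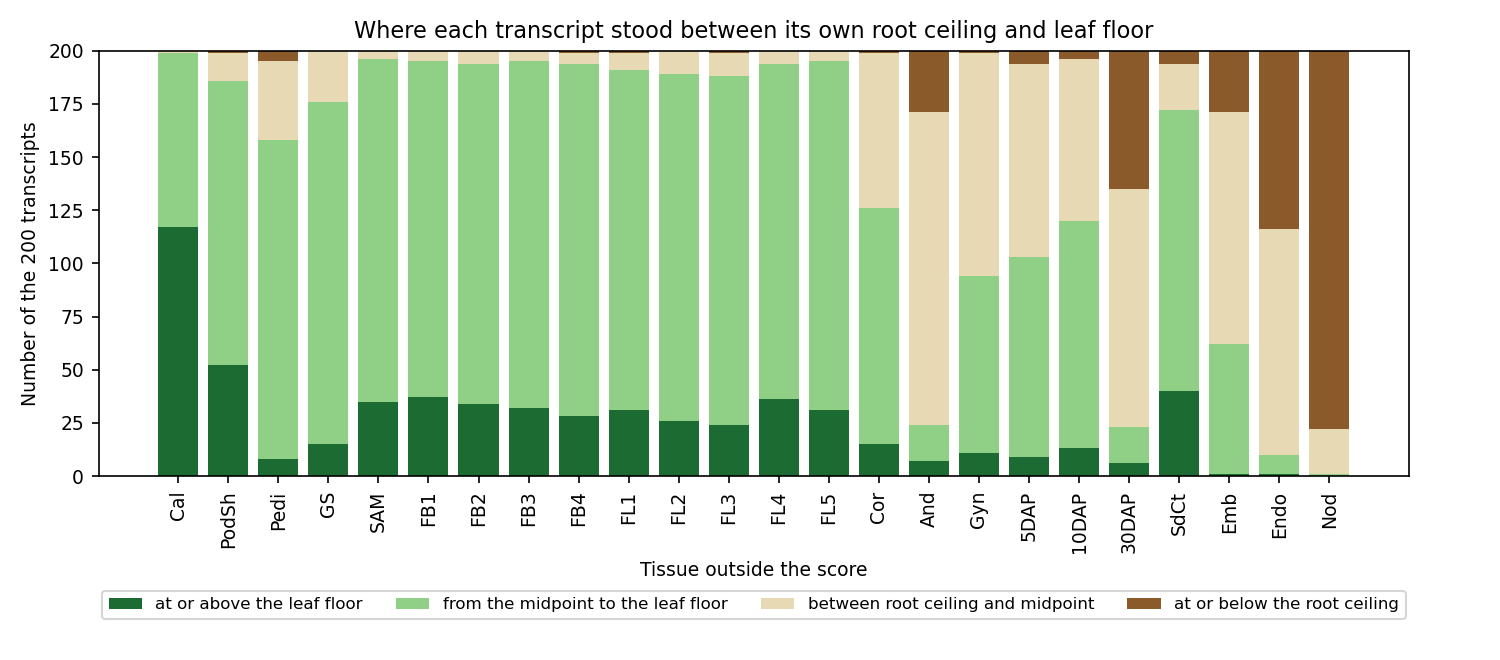
Number of the 200 members (bar height) at or above the leaf floor, from the midpoint to the floor, between ceiling and midpoint, and at or below the root ceiling, in each of the 24 tissues outside the score. Cal has 117 members at or above the floor, And 29, 30DAP 65, Endo 84 and Nod 178 at or below the ceiling.

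Counts of members were similar in the 9 flower stages. At or above the midpoint were 195 members in FB1 (background 84.5%), 194 in FB2 (84.7%), 195 in FB3 (83.7%) and 194 in FB4 (77.7%), then 191 in FL1 (76.1%), 189 in FL2 (75.8%), 188 in FL3 (77.2%), 194 in FL4 (75.3%) and 195 in FL5 (80.9%). The leaf floor was reached by fewer, 37 members in FB1 (62.8%), 34 in FB2 (62%), 32 in FB3 (58.5%) and 28 in FB4 (53.2%), then 31 in FL1 (53.4%), 26 in FL2 (53.3%), 24 in FL3 (52.5%), 36 in FL4 (51.6%) and 31 in FL5 (55.2%). In all 9 stages the members' share was thus above the background at the midpoint and below it at the floor. As in the green organs, the choice by floor and ceiling bears on both. At or below the root ceiling was 1 member in FB4 (11.3%), FL1 (11.1%) and FL3 (10.5%), and 0 in FB1 (9.87%), FB2 (8.74%), FB3 (8.92%), FL2 (11.6%), FL4 (12.9%) and FL5 (10.3%). The spread of L over the 9 stages had a median of 1.15 per member, against 0.95 over all transcripts under the limit. By this measure the stages were no more alike for members than for transcripts in general. A transcript near 0 FPKM throughout can show little spread, and the rule chose members with high floors. Floral organs taken apart differed: 126 members were at or above the midpoint in Cor (59.4%), 94 in Gyn (59.3%) and 24 in And (26.6%), and 15 members reached the floor in Cor (40.3%), 11 in Gyn (41.5%) and 7 in And (20.6%). At or below the root ceiling were 29 members in And (55.3%), against 1 in Cor (20.8%) and 1 in Gyn (20.3%).

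In seeds the members at or above the midpoint numbered 172 in SdCt (background 60.9%), 120 in 10DAP (58.1%), 103 in 5DAP (55.4%), 62 in Emb (38.5%), 23 in 30DAP (16.3%) and 10 in Endo (28.2%). As shares of 200 these were 86% in SdCt, above its background, 60% in 10DAP and 51.5% in 5DAP, close to theirs, and 31% in Emb, 11.5% in 30DAP and 5% in Endo, below theirs. At or below the root ceiling were 84 members in Endo (52.7%), 65 in 30DAP (69.2%), 29 in Emb (40.2%), 6 in SdCt (25.6%), 6 in 5DAP (25%) and 4 in 10DAP (24.2%). The leaf floor was reached by 40 members in SdCt (38.2%), 13 in 10DAP (38.5%), 9 in 5DAP (37.2%), 6 in 30DAP (11.5%), 1 in Emb (24.1%) and 1 in Endo (21.1%). The spread of L over the 6 seed tissues had a median of 4.92, against 1.86 over all transcripts under the limit, so a member's level differed more between seed tissues than between flower stages. As for the flower stages, the high floors of the members bear on the contrast in spread with all transcripts.

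Pairs of tissues outside the score were compared directly, counting a difference of at least 1 in L, which is 2-fold on the FPKM + 1 scale. Transcripts near 0 FPKM in both tissues cannot differ by that much, while members had leaf floors of at least 20.9 FPKM. How far this difference in level bears on the contrasts with all transcripts, here and below, was not tested. Calyx exceeded corolla in 178 members and was lower in 4, against 13.5% and 6.73% of all 30014 transcripts under the limit, with a median difference of 2.64 in L. Calyx exceeded androecium in 194 and was lower in 2 (30.9% and 9.33%; median 4.87). These organs came from the same flower stage. Gynoecium exceeded androecium in 141 members and was lower in 8 (36.9% and 9.52%; median 1.62). Pedicel exceeded corolla in 53 and was lower in 25 (14% and 14.2%), with a median difference of 0.37. As shares of the members these are 26.5%, above that of all transcripts under the limit, and 12.5%, slightly below it. When a difference of at least 2 was asked for, the counts were 13 and 12 (6.12% and 4.58%), close to the background. Green stalk and petals were within 1 in L for 122 members, and the differences ran from -12.8 to 5.1. Podshell exceeded gynoecium in 163 and was lower in 6 (12.7% and 15.6%; median 2.12).

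**Figure D4:**
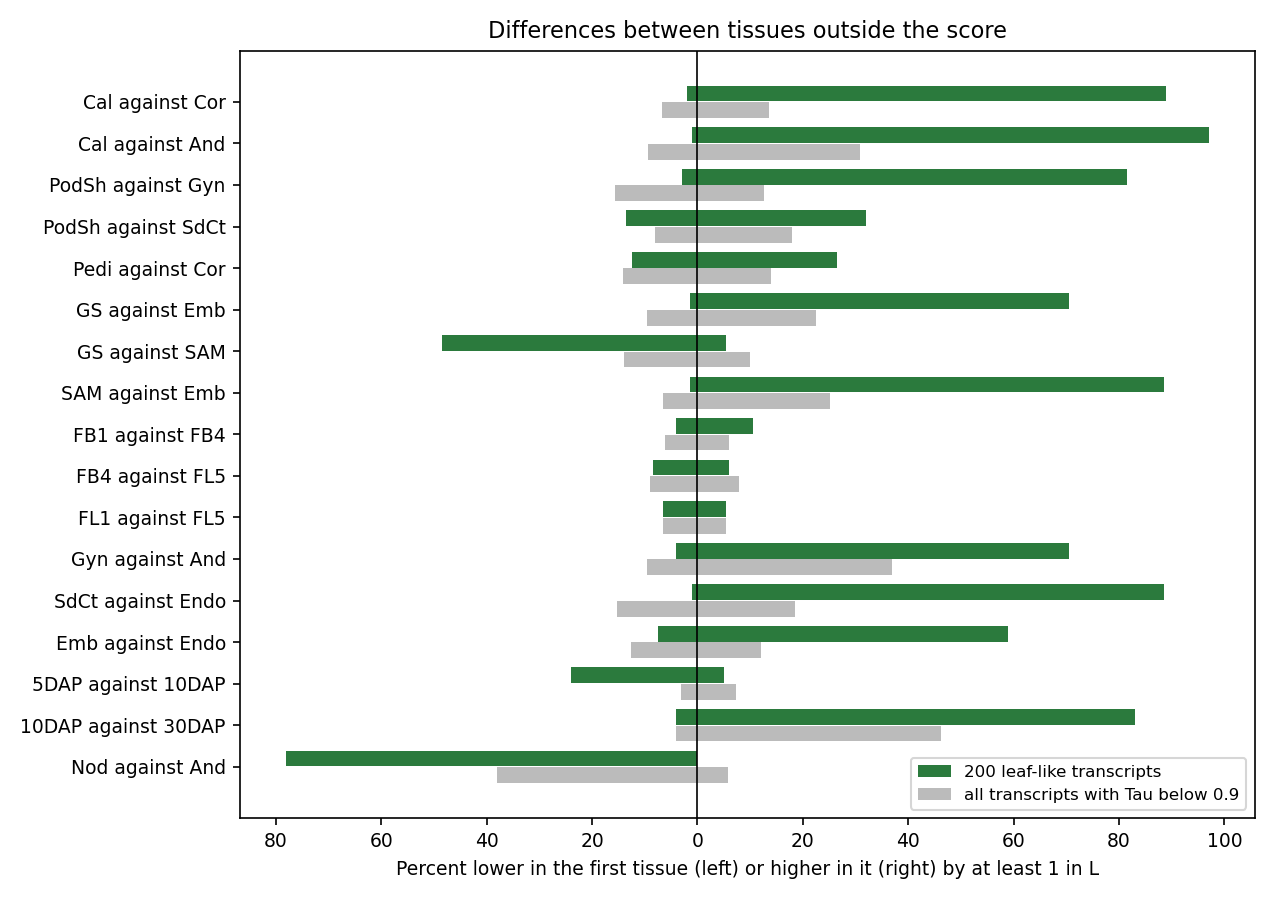
Percent of the 200 members (green) and of all 30014 transcripts with Tau below 0.9 (grey) that were higher (right) or lower (left) by at least 1 in L in the first tissue of 17 pairs outside the score. The green bars for Cal against And reach 97% on the right and those for Nod against And 78% on the left, and the bars for FL1 against FL5 are short on both sides.

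Between the vegetative tissues outside the score, the apical meristem was the higher for many members. GS was lower than SAM in 97 members and higher in 11, against 13.9% and 9.89% of all transcripts under the limit, with a median difference of -0.97. SAM exceeded embryo in 177 members and was lower in 3 (25.2% and 6.53%; median 2.87), and GS exceeded embryo in 141 and was lower in 3 (22.4% and 9.61%; median 1.93). Rubisco activase went against the first of these, with 306 FPKM in GS and 88.9 in SAM, while PSAF followed it with 484 and 854.

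In each of the 3 pairs of flower stages compared, most members differed by less than 1 in L, although the spread over all 9 stages was larger. The same held for most transcripts under the limit in each of these pairs. FB1 exceeded FB4 in 21 members and was lower in 8, against 6.06% and 6.24% of all transcripts under the limit. FB4 was lower than FL5 in 17 and higher in 12 (8.92% and 7.79%), and FL1 was lower than FL5 in 13 and higher in 11 (6.62% and 5.33%), which are shares close to the background. For the last 2 pairs the larger count changed sides under some of the other settings given in the closing section.

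Within the seed, most members were higher in the coat than in the endosperm. SdCt exceeded Endo in 177 members and was lower in 2, against 18.5% and 15.3% of all transcripts under the limit, with a median difference of 4.42. Embryo exceeded endosperm in 118 and was lower in 15 (12% and 12.6%; median 1.84). Podshell exceeded seed coat in 64 and was lower in 27 (17.9% and 8.05%), with a median difference of 0.31. As shares of the members these are 32% and 13.5%, both above those of all transcripts under the limit. These 2 maternal tissues of the same pods were within 2-fold for 109 members. Members thus differed between them more often than transcripts under the limit in general. They were also more abundant, at medians of 83.6 FPKM in PodSh and 52.7 in SdCt, against 5.34 and 3.66. Whole seeds were lower at 5DAP than at 10DAP in 48 members and higher in 10 (3.04% and 7.29%; median -0.65), counts that turned to 1 and 4 when a difference of at least 2 was asked for. 10DAP exceeded 30DAP in 166 members and was lower in 8 (46.3% and 4.16%; median 2.41). Between 10DAP and 30DAP, PSAF went from 509 to 53.7 FPKM and NDF4 from 52.6 to 3.85.

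In nodule most members were at or below their highest root value. Only 1 member was at or above the midpoint in Nod (background 5.77%), 0 were at or above the floor (4.39%) and 178 were at or below the root ceiling (89.8%), a share of 89% that is close to the background. Nod was lower than And by at least 1 in L in 156 members and higher in 0 (38.1% and 5.87%). The nodule profile itself stood apart: the 1998 transcripts listed as not aligned to the genome held 56.2% of its FPKM sum, against 0.58% (R) to 3.16% (30DAP) in the other 30 tissues, which lowers the FPKM of every other transcript in Nod. With those transcripts left out and every tissue scaled to a common sum, an alternative chosen after seeing the data, the median L over all transcripts under the limit moved from 0.90 to 1.97 in Nod and that of the members from 0.12 to 0.36. In that setting 147 members were lower in Nod than in And and 4 higher, against 19.8% and 16.8%, and 2 reached the midpoint. The members' low level in Nod thus held under this combined change, while the background of the comparison with And fell from 38.1% to 19.8%.

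Taking the tissue classes together, 133 members reached the midpoint in at least 1 green organ, flower stage, floral organ and seed tissue but not in nodule, and 1 more (Ca_TC17567) did so in nodule too. Another 46 did so in green organs, flower stages and seed tissues but no floral organ, 12 in green organs and flower stages alone, and 5 in green organs, flower stages and floral organs without seeds. With GS and SAM counted as green organs, all 200 reached it in at least 1 green organ and 137 in all 5, and 181 reached it in all 9 flower stages. In floral organs 21 reached it in all 3, and in seed tissues 1 in all 6. No background share was worked out for these counts over classes. Taken singly, the green organs had 52.8% (Pedi) to 85.7% (Cal) of the background transcripts at or above the midpoint. For the flower stages this was 75.3% (FL4) to 84.7% (FB2). The number of tissues outside the score at or above the midpoint had a median of 17 and ran from 2 to 23, also without a background. Over those 24 tissues, each member's L correlated with the median profile of the members at a median Pearson's r of 0.91, with 116 members at 0.9 or more and 5 below 0.5. These correlations describe a set that includes each member, over tissues that share cells with each other.

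The members that departed from this profile were picked out after their values were seen. Ca_TC07308 was far higher in flowers and pedicel than in leaves, with 59.3 to 126 FPKM in leaf tissues against 13390.3 in Pedi, 12269 in FL1, 8924 in Cor and 4987 in PodSh. Over the buds its level went from 489 FPKM in FB1 to 8069 in FB4, the opposite direction to most members that changed between these stages. Ca_TC21030 had 98.7 to 609 FPKM in leaf tissues, 7841 in Cor, 6344 in FB4 and 1967 in And, but 0.127 in Pedi. Ca_TC24427 shared this corolla and bud pattern, with 4678 FPKM in Cor and 3151 in FB4. Ca_TC20970 and Ca_TC09574 were high in meristem and gynoecium, at 2104 and 2492 FPKM for the former and 687 and 640.3 for the latter.

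**Figure D5:**
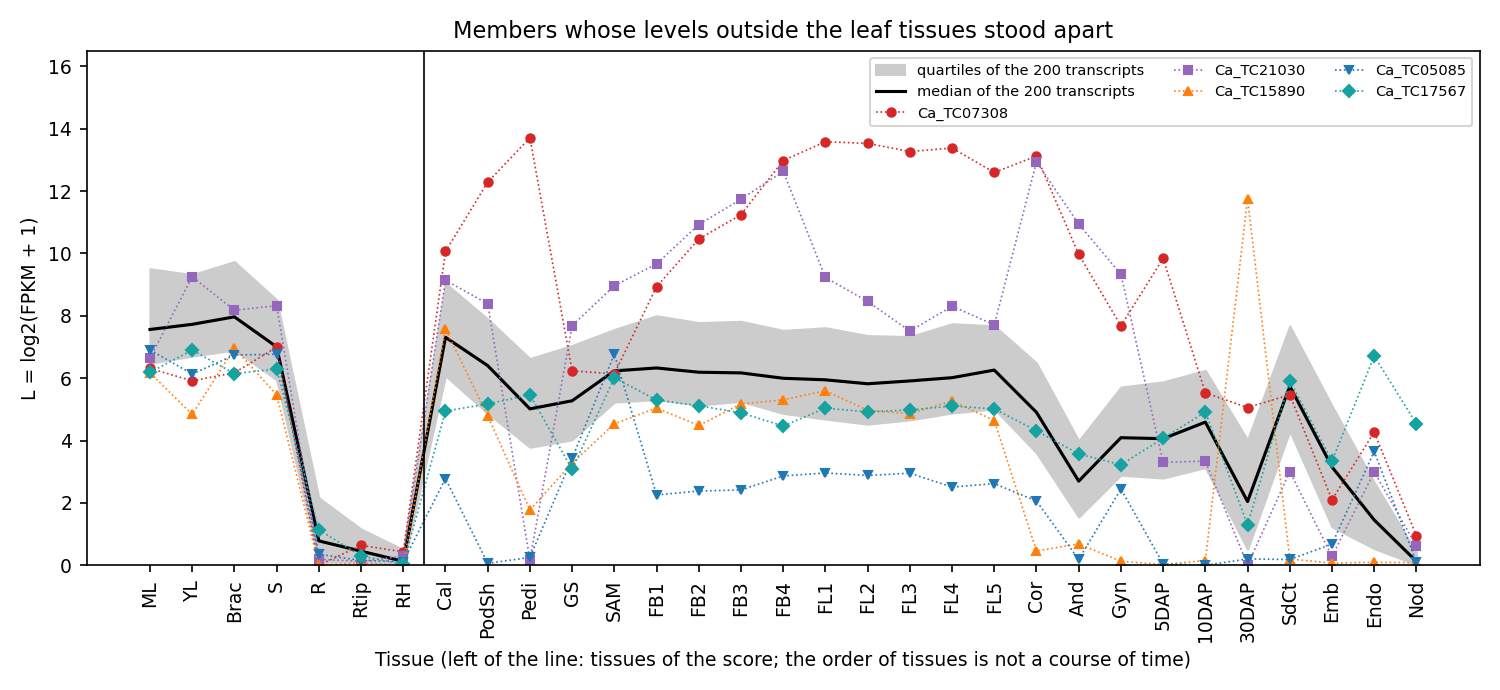
L in 31 tissues of 5 members chosen after their values were seen (coloured points), with the median (black) and quartiles (grey) of the 200 members. Ca_TC07308 rises above the grey band in Pedi and the flowers, Ca_TC21030 in Cor, Ca_TC15890 in 30DAP, and Ca_TC17567 in Endo and Nod, while Ca_TC05085 falls below it in the flower stages.

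In seeds and nodule other members stood apart. Ca_TC15890 had 27.6 to 124 FPKM in leaf tissues and 3439.8 in 30DAP, with no more than 0.15 in any other seed tissue. Ca_TC31094 had 1146 FPKM in 30DAP and 929 in GS, against 0.007 in Emb. Ca_TC17567 was the member at or above the midpoint in nodule, with 22.2 FPKM in Nod, and had 104 in Endo, within its leaf range of 69.8 to 118. Ca_TC05085 and Ca_TC05559 were the narrowest. Ca_TC05085 had 69.2 to 119 FPKM in leaf tissues and 108 in SAM, and 5.87 in Cal, 0.043 in PodSh and 3.78 to 6.78 in the flower stages. Ca_TC05559 reached its midpoint in green organs alone, with 450.0 FPKM in Cal against 3.92 in FL3.

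Consecutive identifiers joined 62 members in 31 pairs. The share of such pairs over all transcripts under the limit and the correlation of other member pairs were not worked out. Within the 31 pairs, L over the 24 tissues outside the score correlated at a median r of 0.95, from 0.55 to 0.99, and 21 pairs were at 0.9 or more. Ca_TC03865 and Ca_TC03866, ranked 1 and 7, had the highest, and Ca_TC04772 and Ca_TC04773 shared 1758 and 539 FPKM in YL with 0.507 and 0.063 in Pedi. For the ATPC1 pair, the positions used show that such neighbours can overlap. Positions were listed for 12 members, all protein-coding and all on chromosome 1, the stretch that the table used covers. Of these 12, 7 overlapped another listed transcript, among them PSAF (6781399 to 6782684) with a further PSAF transcript (Ca_TC00867, ranked 422), so reads may be shared between the partners of each overlap. The share of overlaps over all listed transcripts was not worked out. Long non-coding transcripts made up 0 of the 12, against 7.01% of the 1584 listed transcripts under the limit.

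Most of the photosynthesis transcripts that the annotation used could name were outside the set. Of 37 antenna transcripts, 25 were under the Tau limit and 1 was a member, and their median score was 0.51, against -0.87 over all transcripts under the limit. The corresponding numbers were 12, 8 and 1 for photosystem II (median 0.01), 14, 9 and 3 for photosystem I and electron transport (1.08), 33, 22 and 2 for carbon fixation (0.05) and 19, 17 and 1 for pigment synthesis (0.07). A score of 1 or more was found in 7, 2, 5, 5 and 7 transcripts of these lists in turn, against 5.72% of all, and of -1 or less in 0, 0, 0, 3 and 2, against 46.2%. Only 200 of the 30014 transcripts under the limit were members, so short lists would hold few or none by that share alone. No member came from photorespiration (22 listed, 15 under the limit, median -0.61), plastid biogenesis (24, 18, 0.05), light signalling (16, 9, -0.19), surface lipids (11, 6, -0.13) or the plastid-encoded genes (110, 53, -0.19). The same held for cell wall peroxidases (16, 11, -2.17), seed storage cupins (4, 2, -0.50), pollen Ole e 1 proteins (3, 2, -1.35) and housekeeping genes (17, 14, -0.35). Plastid biogenesis still had 7 transcripts at 1 or more and 2 at -1 or less, and photorespiration 3 and 6. Among transcripts that reached 1 FPKM somewhere, the median score was 2.02 for pigment synthesis, 1.60 for plastid biogenesis and -0.74 for photorespiration. It was 0.69, 0, 3.99 and 0.13 for antenna, photosystem II, photosystem I with electron transport, and carbon fixation. The haemoglobin transcript (Ca_TC36728) was over the Tau limit, at 64.7 FPKM in Nod and listed at 0 elsewhere. Most listed photosynthesis transcripts are among those not aligned to the genome, 32 of 37 for the antenna, and 13 of the 37 stayed below 1 FPKM in every tissue. Descriptions were taken in part from the list of unaligned transcripts itself, so the lists lean toward these by construction. Such transcripts made up 3.73% of all under the Tau limit and 2.5% of the members. The list medians and counts therefore do not stand for all chickpea photosynthesis genes. Further ones may be among the 182 members without a description, which could not be checked.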

How the data were processed

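Total RNA of each tissue was sequenced on the Illumina platform after TruSeq library preparation. According to the study's methods, the authors filtered the reads with NGS QC Toolkit, mapped them to their reference transcriptome with bowtie2 and estimated abundance with RSEM. The deposited values are FPKM per transcript, averaged by the authors over the replicates of a tissue. The tables hold no read counts, and the read depths that the study gives for its libraries were not used here. The table for seeds at 20 days after pollination is headed FPKM, but its values look like estimated counts, and it was not used.

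From these values L = log2(FPKM + 1), Tau and the score were computed for 38818 transcripts in Python 3.11.15 with numpy 2.4.6 and pandas 2.3.3. Of these, 377 were 0 in all 31 tissues and 8427 had Tau of 0.9 or more. With 1 averaged value per tissue no test was made, and counts of members were set beside those of all transcripts under the same limit. The selection code was run on simulated data with planted leaf-over-root transcripts, which checks the computation only and not the set described here. The members, the tissue pairs and the gene lists were chosen with earlier results of these data known. Named were the 10 highest scores, the 5 members and 5 transcripts on either side of the limit, listed members, described members and, for each tissue, the described members highest and lowest relative to the leaf floor. Annotation came from the study's supplementary tables, which were used in part. Alternatives covered the pseudocount, scaling, the Tau limit, a minimum FPKM, the tissues of the score and the size of the difference, and, added after seeing the data, the transcripts not aligned to the genome.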

Additional observations from a re-analysis of the deposited data

How the results depend on the processing

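Choosing the members again under other settings left between 152 and 200 of the 200 in place: 152 with a pseudocount of 0.1, 195 with each tissue scaled to a common FPKM sum, 190 after quantile normalization, 200 without the Tau limit, 200 with a minimum of 1 FPKM in some tissue, 166 without S in the leaf floor and 177 without RH in the root ceiling. With the unaligned transcripts left out and the common sum applied together, a setting chosen after seeing the data, 193 remained. Of 210 alternative values for the main counts, 193 stayed within 1.5 times and 17 did not. Shares of all transcripts under the limit are in brackets. With a difference of at least 2 in place of 1, the counts were 24 for PodSh above SdCt (6.99%), 13 for Pedi above Cor (6.12%) and 93 for GS above Emb (11.1%). They were 23 for GS below SAM (2.87%), 5 for FB1 above FB4 (0.96%) and 4 for FB4 below FL5 (2.97%). For FL1 below FL5 the count was 1 (1.78%), for Gyn above And 57 (12.2%) and for 5DAP below 10DAP 1 (0.33%). The share for Pedi above Cor was then close to the background. With a difference of at least 0.5 the counts were 87 for Pedi above Cor (22.1%), 151 for GS below SAM (29.9%) and 86 for FB1 above FB4 (22.6%). They were 58 for FB4 below FL5 (19%), 75 for FL1 below FL5 (17%) and 117 for 5DAP below 10DAP (12.3%). These counts follow from the stricter or looser limit. Quantile normalization gave 91 members for Gyn above And, against 21.1% of all transcripts under the limit in that setting, and the cause was not tested. Leaving S out of the floor gave 31 members at or above it in PodSh, for which no background share was worked out. S set the floor in 141 members, and leaving a tissue out can only keep or raise a transcript's floor. The members were also chosen again there, and the part of each was not tested. The larger count changed sides for FB4 against FL5 with a pseudocount of 0.1 (19 higher, 18 lower) and with a difference of at least 2 (7 and 4), and for 5DAP against 10DAP with a difference of at least 2 (4 and 1). For FL1 against FL5 it did so with the pseudocount (17 and 16), the common sum (13 and 9), quantile normalization (15 and 11), S left out (12 and 11), RH left out (14 and 13), the unaligned transcripts left out with the common sum (12 and 9) and a difference of at least 2 (7 and 1). No paired analysis was possible because each tissue has 1 averaged value, and for the same reason no replicate could be left out.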

Other observations

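An antenna transcript close to the edge of the set was LHCB6 (Ca_TC00156), ranked 220 with a score of 4.15. It had 459 FPKM in ML, 844 in YL, 1385 in Brac and 283 in S, and 15 in R. It was named after its values were seen.

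Some transcripts with photosynthesis matches were highest in nodules, none of them members. Of 96 antenna, photosystem, electron transport and carbon fixation transcripts listed, 61 reached 1 FPKM in some tissue, and 12 of these were highest in Nod, 11 of them not aligned to the genome. An LHCB2-type transcript (Ca_TC32102) had 17785 FPKM in Nod and 0 in the leaf tissues, and an RBCS transcript (Ca_TC31838) had 14504 FPKM in Nod and no more than 0.02 in the leaf tissues. Their source was not tested.

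Several limits apply. Each tissue had 1 averaged value, so whether any difference exceeds replicate spread is unknown. FPKM is relative to each tissue's total, and Ca_TC03681 alone took 11.4% of that of Brac. Of the 200 members, 182 carry no description, so what most of them encode is not known here. Positions cover the first 1808 transcripts of the table used, and the list of unaligned transcripts was used in part.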
